A study of Mus musculus with 12 samples.

Results

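The genes described here encode the nuclear subunits of the mitochondrial respiratory chain and of ATP synthase, with a few named assembly proteins, in cultured mouse bone marrow cells with MLL-AF9 or E2A-HLF, fusion oncogenes of leukaemia. They were chosen by symbol, not by value: every symbol that begins with Nduf, Uqcr, Cox4 to Cox8 or Atp5, or is Sdha, Sdhb, Sdhc or Sdhd, and stands in all 3 deposited tables. This gave 89 genes of the 22364 symbols that the 3 tables share. Complex I had 42, complex II 4, complex III 8, complex IV 18 and complex V 17. Of the 89, 81 are counted as subunits. The other 8 are counted apart where it matters (Ndufaf1 to Ndufaf4, Ndufab1, Cox7a2l, Atp5s and Atp5sl). They are assembly factors or other proteins with a matching name, except Ndufab1. Ndufab1 is a subunit of complex I and is set apart because it is also a fatty acid synthesis protein. The symbols of the mitochondrially encoded subunits were searched for as well, and 0 were in the tables, so these levels concern the nuclear genes alone.

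The study set PRDM16, which carries zinc fingers and is named a histone methyltransferase in the series title, against a form labelled PRDM16mut. RNA from 12 libraries was sequenced, in 6 groups of 2. In the MLL-AF9 cotransduction, lineage-negative bone marrow cells of C57BL/6 mice received MLL-AF9 together with PRDM16 or with PRDM16mut. In the E2A-HLF cotransduction the same kind of cells received E2A-HLF with PRDM16 or with PRDM16mut. Both were collected after 10 days in G418 and puromycin. In the stable cells, an earlier transduction of bone marrow cells with MLL-AF9 was followed by that of PRDM16 or PRDM16mut and by 10 days of puromycin. All groups thus carry a fusion oncogene, introduced PRDM16 of either form and drug selection, and the culture medium was IMDM, with 15% FBS and 10 ng/ml each of the cytokines SCF, IL6 and IL3. The sources used here do not give the change in PRDM16mut, and no group without either form was analysed here. The labels do not say whether the 2 libraries of a group came from separate cultures or animals, so p-values reflect the spread of these libraries alone, and that spread may be technical.

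In the respiratory chain, complex I (NADH dehydrogenase) and complex II (succinate dehydrogenase, also an enzyme of the citric acid cycle) pass electrons to ubiquinone, complex III passes them to cytochrome c, and complex IV passes them to oxygen. Complexes I, III and IV pump protons, and complex V, ATP synthase, uses the gradient. All but complex II combine nuclear with mitochondrially encoded subunits, and the nuclear genes are known to share binding sites for NRF1, for ETS factors such as GABP, and for YY1 in their promoters. Several subunits of complex IV come as a common isoform and as one used in muscle, lung or testis.

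Promoters are shown because most of these genes rose in 1 of the 3 experiments. RefSeq promoters (GRCm38.p6, 250 bases before to 50 after the start) were found for 74 of the 89 genes. Searched on both strands, the NRF1 motif (GCGCA, any base and GCGC) was in 18 of the 74 promoters (24.3%), against 5.19% of the promoters of all 27025 RefSeq genes with an entry. The ETS motif CCGGAAG was in 17 (23.0%), against 9.93%. The YY1 motif AAGATGGCG was in 8 (10.8%), against 1.64%. The CCAAT box was in 45.9%, against 41.1%, and the E-box CACGTG in 9.46%, against 8.09%. No motif searched contains another, and a match describes the letters only. The 27025 genes include those too low to be tested here, and no share among the tested genes was computed. The excess is therefore not shown to be particular to the respiratory chain. Split by the call in the MLL-AF9 cotransduction, which is described in the paragraphs on values, the NRF1 motif was in 15 of 54 promoters of genes called higher and 3 of 16 of genes not called. The ETS motif was in 16 of 54 and 1 of 16, and the YY1 motif in 5 of 54 and 3 of 16.

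The 180 bases before the start are printed for 5 genes called higher in the MLL-AF9 cotransduction, and for Ndufb3 and Cox7a1, which were called lower. The 5 had the largest fold change among 16 called higher that hold an NRF1, ETS or YY1 match in that stretch. Genes on a chromosome that was set aside were not considered, so the 16 leave them out. Capitals mark the NRF1, ETS, YY1 and CCAAT matches on either strand, and each sequence runs 5′ to 3′ in the direction of the gene.
Uqcrh: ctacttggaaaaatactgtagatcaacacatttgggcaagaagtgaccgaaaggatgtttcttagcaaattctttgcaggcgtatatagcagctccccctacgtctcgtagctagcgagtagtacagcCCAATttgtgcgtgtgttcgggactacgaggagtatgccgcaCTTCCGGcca
Atp5k: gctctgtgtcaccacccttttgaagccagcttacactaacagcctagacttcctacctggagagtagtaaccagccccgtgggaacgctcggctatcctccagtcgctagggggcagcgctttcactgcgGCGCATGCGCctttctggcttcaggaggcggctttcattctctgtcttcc
Cox6a1: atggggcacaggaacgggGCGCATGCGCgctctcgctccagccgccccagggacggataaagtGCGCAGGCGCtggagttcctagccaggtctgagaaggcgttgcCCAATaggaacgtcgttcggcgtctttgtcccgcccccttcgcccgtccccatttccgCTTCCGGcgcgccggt
Ndufa8: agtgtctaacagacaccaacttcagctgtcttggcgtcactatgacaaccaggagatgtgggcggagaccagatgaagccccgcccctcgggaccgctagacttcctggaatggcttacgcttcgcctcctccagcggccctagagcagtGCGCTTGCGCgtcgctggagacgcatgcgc
Ndufs3: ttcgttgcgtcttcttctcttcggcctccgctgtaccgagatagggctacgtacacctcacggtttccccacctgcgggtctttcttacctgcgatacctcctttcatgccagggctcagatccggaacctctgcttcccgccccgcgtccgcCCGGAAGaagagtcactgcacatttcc
Ndufb3: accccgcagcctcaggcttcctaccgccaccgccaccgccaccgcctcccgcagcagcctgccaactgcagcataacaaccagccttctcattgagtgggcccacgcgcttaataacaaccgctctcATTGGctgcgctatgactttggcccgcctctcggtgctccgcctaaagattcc
Cox7a1: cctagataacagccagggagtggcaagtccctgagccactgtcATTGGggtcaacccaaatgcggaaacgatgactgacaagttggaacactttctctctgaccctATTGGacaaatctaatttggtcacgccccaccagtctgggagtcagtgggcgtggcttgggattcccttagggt
In GRCm38.p6 these stretches are chr4:116075071-116075250 (minus strand) for Uqcrh, chr5:108434400-108434579 (minus strand) for Atp5k, chr5:115348959-115349138 (minus strand) for Cox6a1, chr2:36049339-36049518 (minus strand) for Ndufa8, chr2:90904722-90904901 (minus strand) for Ndufs3, chr1:58586217-58586396 (plus strand) for Ndufb3 and chr7:30183991-30184170 (plus strand) for Cox7a1. In these bases Uqcrh and Ndufs3 have an ETS match, Atp5k and Ndufa8 an NRF1 match, and Cox6a1 both, its ETS match nearer the start than its NRF1 matches. Ndufb3 and Cox7a1 have only CCAAT matches in these bases.

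Values are FPKM, which divides the fragments of a gene by its length and by the size of the library. The number of reads in a library is thus not stated, only the relative depth of replicates was estimated, and counting intervals are not given. From the steps between low values, replicate 2 was 1.62 times as deep as replicate 1 among the cotransduced PRDM16 libraries with MLL-AF9, while the other 5 groups had ratios of 0.916 to 1.17. Prdm16 itself had 83.9 and 119 FPKM in PRDM16 libraries, against 29.5 and 30.1 FPKM in PRDM16mut libraries, in the MLL-AF9 cotransduction (adjusted p = 0.000418). In the E2A-HLF cotransduction it had 49.2 and 56.5 FPKM in PRDM16 libraries, against 56.6 and 43.5 FPKM in PRDM16mut libraries, and the groups overlapped (adjusted p = 0.622). It was lower in the stable cells, with 77.9 and 79.95 FPKM in PRDM16 libraries, against 89.1 and 94.6 FPKM in PRDM16mut libraries (adjusted p = 0.0414). The transcript level does not tell the introduced form from the cell's own or the mutant from the intact one, so it does not check the labels. Rn45s, the precursor of ribosomal RNA, stood at 0 in the PRDM16 libraries of the MLL-AF9 cotransduction and at 1542 and 1554 FPKM in its PRDM16mut libraries, and lay between 941 and 1451 FPKM in the other 8 libraries.

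The respiratory chain genes were among the most abundant in every library. Those tested had a median percentile of 94.2 to 95.8 among the tested genes of a library, and 73 or 74 of them reached 30 FPKM in all 4 libraries of a table. A gene was tested where at least 2 of the 4 libraries had 1 FPKM or more. Ndufa4l2, Cox7b2, Cox8b and Cox8c, isoforms of other tissues, failed this in every table. Cox6a2 failed it in the MLL-AF9 cotransduction and Cox4i2 in the stable cells. That left 84, 85 and 84 of the 89 genes with MLL-AF9 and with E2A-HLF in the cotransductions and in the stable cells. Many of these genes have processed pseudogenes, and the sources used here do not say how reads that match several copies were shared.

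In the MLL-AF9 cotransduction most respiratory chain genes were higher with PRDM16, in all 5 complexes. Of the 84 tested, 63 were called higher, 3 lower (Ndufb3, Cox4i2 and Cox7a1) and 18 in neither direction, at a limma adjusted p under 0.05 over all 11071 genes tested. That is 78.6% called, beside 69.5% of all genes tested, of which 35.6% were higher and 34% lower. The summed level of the 89 genes was 22998 and 22326 FPKM in PRDM16 libraries and 16613 and 16308 FPKM in PRDM16mut libraries, 1.38 times as much. The median log2 fold change, on the scale of log2(FPKM + 1) throughout, was 0.40, beside 0.01 for all genes tested, with quartiles at 0.19 and 0.55. The groups did not overlap in 74 of the 84 genes, 68 of them higher and 6 lower, while 86.3% of all genes tested did not overlap.

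The following features of these libraries move with this result. The first is the level of granulocyte genes. The 13 neutrophil genes examined (granule proteins such as Elane, Mpo, Ngp and Camp, with S100a8 and S100a9) were all lower with PRDM16, and summed to 1189 and 1127 FPKM in PRDM16 libraries, against 57779 and 56709 FPKM in PRDM16mut libraries. All 9 tested of the 10 mast cell and basophil genes were lower too, summing to 117 and 109 FPKM in PRDM16 libraries, against 2174 and 2155 FPKM in PRDM16mut libraries. With these lists and Rn45s taken out of the library sum, the respiratory chain genes held 3.37% and 3.33% of the remaining FPKM in PRDM16 libraries and 2.92% and 2.9% in PRDM16mut libraries, and 3.37% and 3.32% against 2.63% and 2.62% with them left in. Rescaled to that remaining sum, an alternative added after these levels were seen, 42 genes were called higher and 14 lower. The median fell to 0.15 and the median of all genes to -0.23. Such rescaling shifts all genes of a library by about the same amount. The distance between both medians (0.38, beside 0.40 as deposited) could therefore hardly change and says nothing on the part of granulocyte genes. Rescaling with Rn45s alone apart gave 55 higher and 6 lower, and a median of 0.29 beside -0.10 for all genes. The second is cell division: all 10 genes of that list were lower, with summed levels of 362 and 371 FPKM in PRDM16 libraries, against 663 and 674 FPKM in PRDM16mut libraries. The third is Rn45s, at 0 in both PRDM16 libraries, against 1542 and 1554 FPKM in PRDM16mut libraries. The fourth is Prdm16 itself, at 83.9 and 119 FPKM in PRDM16 libraries, against 29.5 and 30.1 FPKM in PRDM16mut libraries. The labels do not say whether both groups were prepared and processed alike. A difference of that kind could not be told apart from an effect of PRDM16. The part of these shifts in the result was not tested, and in bulk RNA fewer cells of a type and less RNA per cell cannot be told apart.

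Leaving out 1 library moved the count. Without PRDM16mut replicate 1, 47 genes were called higher and 2 lower, and without PRDM16mut replicate 2, 46 and 3. Without PRDM16 replicate 1 the counts were 65 and 7, and without PRDM16 replicate 2, 68 and 6. The median lay between 0.377 and 0.425 in these 4 fits. Among the genes named here, Atp5b, Atp5g2, Atp5j, Ndufa9, Ndufaf1, Ndufb3, Ndufb10, Sdha, Uqcr11 and Uqcrc1 lost their call without either PRDM16mut library, and Uqcrfs1 without PRDM16mut replicate 2. All of these but Ndufb3 also lost it when rescaled with the granulocyte lists and Rn45s apart.

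**Figure D1:**
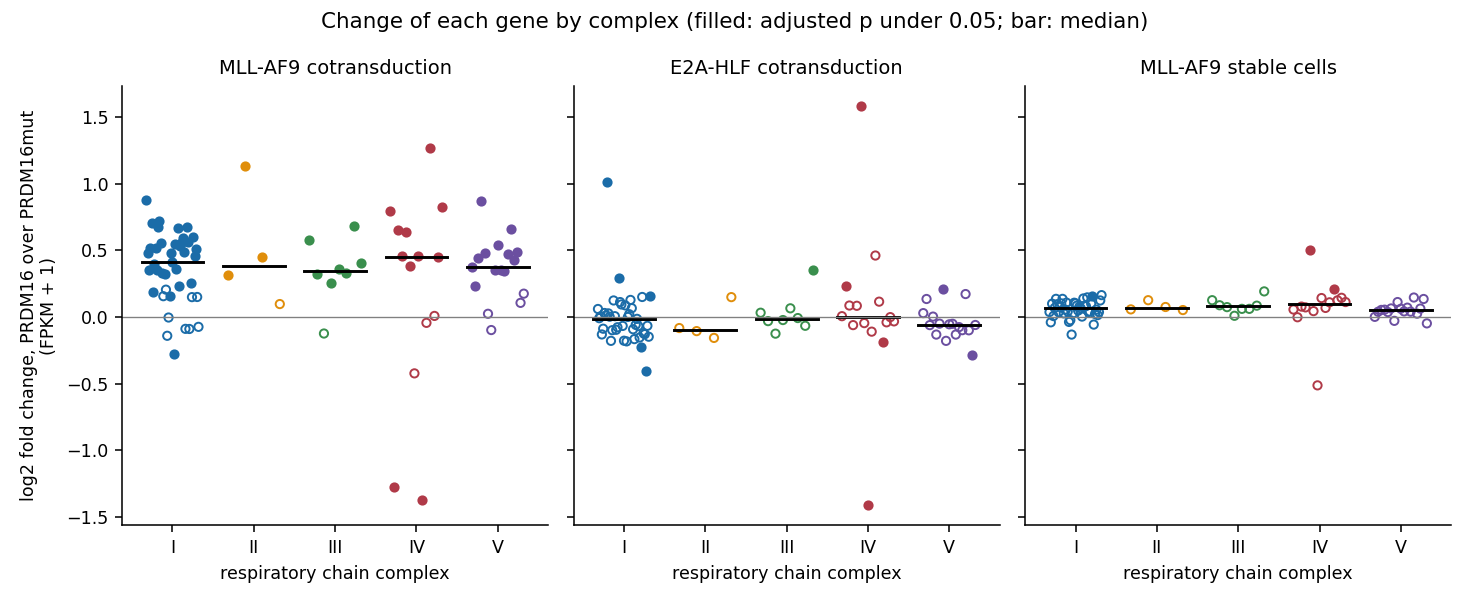
Log2 fold change of PRDM16 over PRDM16mut, on log2(FPKM + 1), for each tested gene (points) by complex, in the 3 experiments; filled points have an adjusted p under 0.05 and bars are medians. In the MLL-AF9 cotransduction the medians of the 5 complexes lie between 0.34 and 0.45, in the E2A-HLF cotransduction between -0.09 and 0, and in the stable cells between 0.05 and 0.10.

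In the E2A-HLF cotransduction the respiratory chain as a whole showed few calls. Of the 85 genes tested, 7 were called higher (Ndufa4, Ndufaf3, Ndufv3, Uqcrq, Cox6a2, Cox4i2 and Atp5g1) and 5 lower (Ndufs4, Ndufs8, Cox6b2, Cox7a2l and Atp5s). That is 14.1% called, beside 43.8% of all 11010 genes tested, of which 22.7% were higher and 21.1% lower. The median log2 fold change was -0.04, beside 0.01 for all genes tested. The summed level was 19753 and 19105 FPKM in PRDM16 libraries and 18359 and 19780.2 FPKM in PRDM16mut libraries, and the groups overlapped. Groups did not overlap in 46 of the 85 genes, 15 higher and 31 lower, beside 73.7% of all genes.

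This split depends on how libraries are scaled: with quantile normalization 6 genes were called higher and 37 lower, and rescaled to a common sum with Rn45s apart, 11 and 24. PRDM16mut replicate 2 was above PRDM16mut replicate 1 in 81 of the 85 genes. Without PRDM16mut replicate 1, 3 genes were called higher and 14 lower, and without PRDM16mut replicate 2, 11 and 2. Without PRDM16 replicate 1 the counts were 3 and 3, and without PRDM16 replicate 2, 5 and 2. Ndufa4, Uqcrq and Cox6a2 higher and Ndufs8 and Cox6b2 lower kept their calls in all 4 of these fits. Neutrophil genes went the other way from the MLL-AF9 cotransduction here, with 9 higher and 0 lower of 10 tested and summed levels of 1954 and 1869 FPKM in PRDM16 libraries, against 675 and 689.5 FPKM in PRDM16mut libraries, and cell division genes had 0 calls of 10 (2 at an unadjusted limma p under 0.05). Their part in the calls was not tested.

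In the stable MLL-AF9 cells few respiratory chain genes were called. Of 84 tested, 3 were called higher (Ndufs4, Cox6a2 and Cox7a2l) and 0 lower, which is 3.57%, beside 6.36% of all 10580 genes tested (4.2% higher and 2.16% lower). The log2 fold change was above 0 in 75 of the 84 genes, beside 55.9% of all genes tested, with a median of 0.07, beside 0.01 for all genes. The PRDM16mut libraries differed by a like amount: replicate 2 was above replicate 1 in 73 of the 84 genes. The median of PRDM16mut replicate 1 minus replicate 2 was -0.0606 (log2). The median fold change was 0.04 without PRDM16mut replicate 1 and 0.09 without PRDM16mut replicate 2. At an unadjusted limma p under 0.05, 23 of the 84 were higher and 2 lower, beside 17% and 11.7% of all genes. The summed level was 17523 and 17435 FPKM in PRDM16 libraries and 16220.5 and 16953 FPKM in PRDM16mut libraries, 1.05 times as much, and the groups did not overlap. In 62 of the 84 genes the groups did not overlap, 58 of them higher, beside 60.6% of all genes (35.1% higher and 25.6% lower). Leaving out 1 library gave 0, 0, 0 and 2 genes called higher, without PRDM16 replicate 1, PRDM16 replicate 2, PRDM16mut replicate 1 and PRDM16mut replicate 2 in that order. Without PRDM16 replicate 1, 1 gene was called lower. Testing genes of any level gave 0 calls in either direction.

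**Figure D2:**
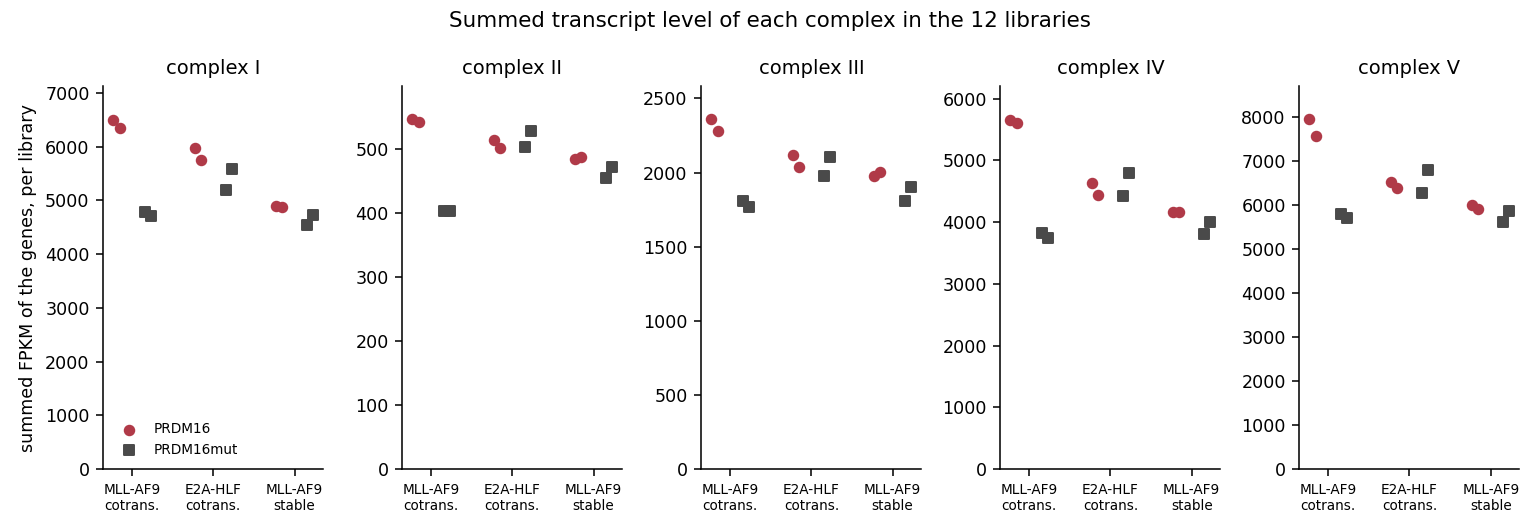
Summed FPKM of the genes of each complex in each of the 12 libraries (points; circles PRDM16, squares PRDM16mut), with the vertical axis from 0 and its own scale in each panel. In the MLL-AF9 cotransduction both PRDM16 libraries lie above both PRDM16mut libraries in every complex, as in complex IV with 5649.5 and 5611 FPKM against 3829 and 3735 FPKM.

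Complex I is the largest of the complexes, with a matrix arm that holds the NADH site and iron-sulfur clusters and a membrane arm. Of its 41 tested genes, 31 were called higher and 1 lower in the MLL-AF9 cotransduction, and the median of their log2 fold changes was 0.42. Its summed level was 6503 and 6341 FPKM in PRDM16 libraries and 4789 and 4712 FPKM in PRDM16mut libraries. Ndufa1, a small accessory subunit of the membrane arm, had 276 and 242 FPKM in PRDM16 libraries, against 139.6 and 142 FPKM in PRDM16mut libraries, a log2 fold change of 0.88 ± 0.0744 (SE), adjusted p = 0.000288. Ndufa7, another accessory subunit, had 258 and 279 FPKM in PRDM16 libraries, against 163 and 162 FPKM in PRDM16mut libraries (log2 fold change 0.72 ± 0.0575 (SE), adjusted p = 0.000227). Both were higher in each PRDM16 library than in either PRDM16mut library.

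The core subunits were not uniform. Ndufv1, which binds NADH and FMN, had 68.1 and 71.9 FPKM in PRDM16 libraries, against 49.8 and 47.8 FPKM in PRDM16mut libraries (log2 fold change 0.51 ± 0.0565 (SE), adjusted p = 0.00075). Ndufa9, an accessory subunit at the base of the matrix arm, had 107 and 112 FPKM in PRDM16 libraries, against 87.3 and 86.9 FPKM in PRDM16mut libraries (log2 fold change 0.33 ± 0.0521 (SE), adjusted p = 0.00296). Ndufs1, the largest iron-sulfur subunit, was not called, at 35.3 and 35.1 FPKM in PRDM16 libraries, against 37.2 and 37.7 FPKM in PRDM16mut libraries (log2 fold change -0.09 ± 0.0497 (SE), adjusted p = 0.168). Ndufs1 thus stood slightly below PRDM16mut in both PRDM16 libraries. Among the genes called higher, Ndufb10 had the smallest change, with 149.9 and 152 FPKM in PRDM16 libraries, against 137 and 133 FPKM in PRDM16mut libraries (log2 fold change 0.16 ± 0.0481 (SE), adjusted p = 0.029), and it was not called with quantile normalization, with either rescaling of the libraries or with the replicate number as a block. The gene called lower was Ndufb3, a membrane arm subunit, with 112 and 101 FPKM in PRDM16 libraries, against 131 and 128 FPKM in PRDM16mut libraries (log2 fold change -0.28 ± 0.0679 (SE), adjusted p = 0.0144).

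Ndufa4 has a symbol of complex I, and its protein is now assigned to complex IV. Its change in the E2A-HLF cotransduction was the largest after the low-level isoforms Cox6a2 and Cox6b2, with 1214 and 1129 FPKM in PRDM16 libraries, against 562 and 599 FPKM in PRDM16mut libraries, a log2 fold change of 1.01 ± 0.0714 (SE), adjusted p = 0.000152. In the MLL-AF9 cotransduction it had 578 and 501 FPKM in PRDM16 libraries, against 381 and 369.5 FPKM in PRDM16mut libraries (log2 fold change 0.52 ± 0.0795 (SE), adjusted p = 0.00262), and in the stable cells 410.3 and 401 FPKM in PRDM16 libraries, against 391 and 400.1 FPKM in PRDM16mut libraries (adjusted p = 0.499). The PRDM16 libraries with E2A-HLF were the highest of all 12, and its PRDM16mut libraries overlapped the PRDM16 libraries of the MLL-AF9 cotransduction, though the tables may have been scaled separately.

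The other complex I calls in the E2A-HLF cotransduction were small. Ndufs8, a core iron-sulfur subunit, was lower there, with 68.8 and 66.4 FPKM in PRDM16 libraries, against 88.1 and 91.7 FPKM in PRDM16mut libraries (log2 fold change -0.41 ± 0.0452 (SE), adjusted p = 0.000937), and higher in the MLL-AF9 cotransduction, with 132 and 137 FPKM in PRDM16 libraries, against 98.5 and 95.9 FPKM in PRDM16mut libraries (log2 fold change 0.46 ± 0.051 (SE), adjusted p = 0.000747). Ndufs8 was not called in the stable cells, with 63.1 and 65.7 FPKM in PRDM16 libraries, against 63.9 and 63.5 FPKM in PRDM16mut libraries (adjusted p = 0.794). Ndufs8 thus was called in opposite directions with the 2 oncogenes. Ndufs4, an accessory subunit needed for a stable NADH module, had 34.02 and 33.4 FPKM in PRDM16 libraries, against 37.8 and 41.3 FPKM in PRDM16mut libraries with E2A-HLF (log2 fold change -0.22 ± 0.0547 (SE), adjusted p = 0.0208). Ndufs4 was higher instead in the stable cells, with 38.9 and 39.8 FPKM in PRDM16 libraries, against 34.97 and 35.5 FPKM in PRDM16mut libraries (log2 fold change 0.16 ± 0.0299 (SE), adjusted p = 0.0471), and there it lost its call without any 1 of the 4 libraries, with adjusted p from 0.0928 to 0.234. With E2A-HLF it lost its call without 3 of the 4 libraries. Each of these calls thus rested on all or most of its libraries. Ndufv3, a small subunit of the NADH module, had 183 and 189 FPKM in PRDM16 libraries, against 164 and 168 FPKM in PRDM16mut libraries with E2A-HLF (log2 fold change 0.16 ± 0.045 (SE), adjusted p = 0.0316), and was not called without any 1 of the 4 libraries. The assembly factor Ndufaf3 had 16.99 and 15.8 FPKM in PRDM16 libraries, against 12.3 and 14.2 FPKM in PRDM16mut libraries (log2 fold change 0.29 ± 0.0769 (SE), adjusted p = 0.0266), and was not called without PRDM16 replicate 1 or PRDM16mut replicate 1.

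**Figure D3:**
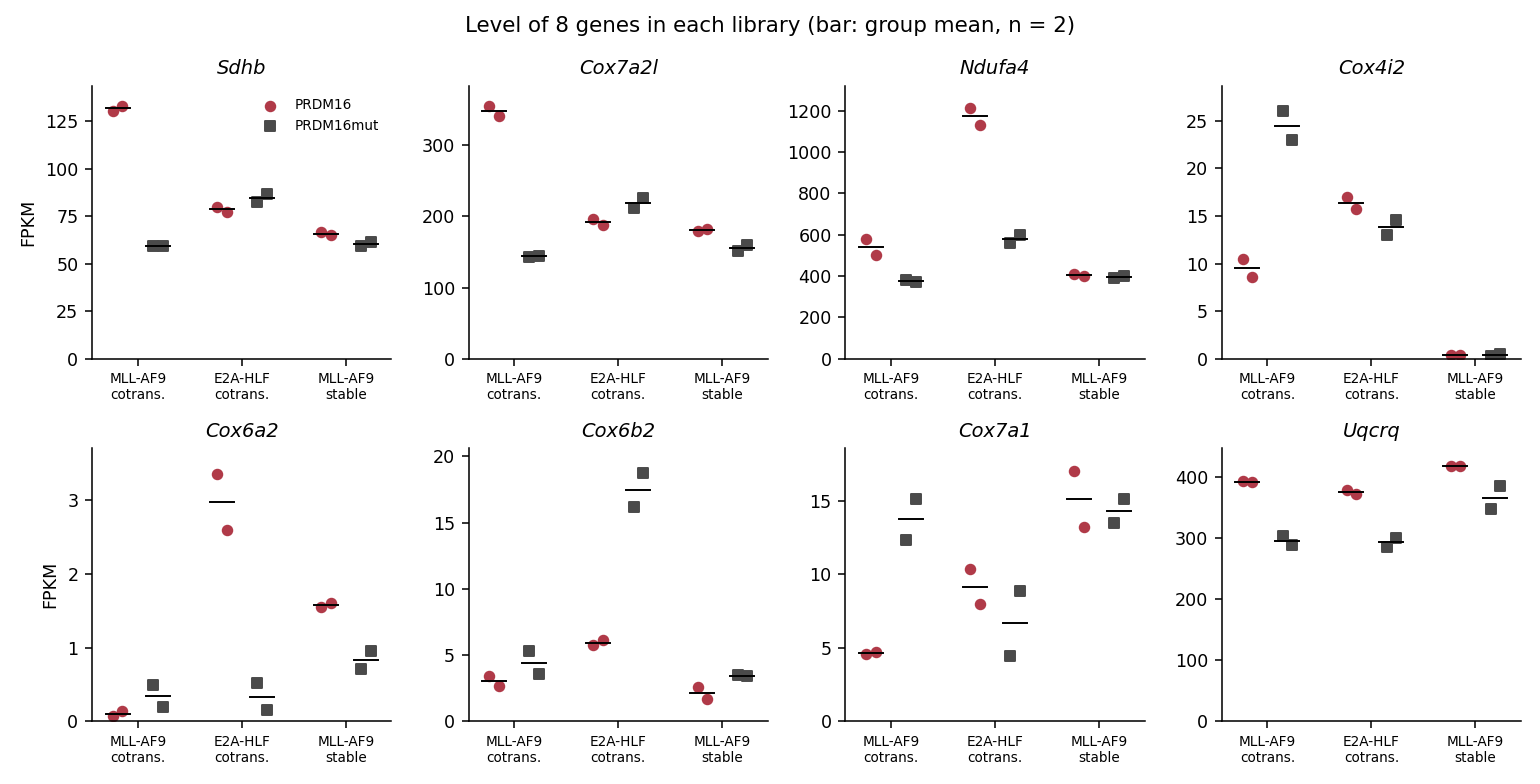
FPKM of 8 genes in each library (circles PRDM16, squares PRDM16mut; bars are means of 2), with the vertical axis from 0. Sdhb and Cox7a2l are above PRDM16mut by the most in the MLL-AF9 cotransduction, Ndufa4 in the E2A-HLF cotransduction, and Cox4i2 is under 1 FPKM in all 4 libraries of the stable cells.

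Complex II has 4 genes, and 3 were called higher in the MLL-AF9 cotransduction. Sdhb, the iron-sulfur subunit, had 130.3 and 133 FPKM in PRDM16 libraries, against 59.4 and 59.4 FPKM in PRDM16mut libraries, a log2 fold change of 1.14 ± 0.0479 (SE), adjusted p = 2.86e-05. It was the largest rise of any subunit in that experiment. The flavoprotein Sdha, which oxidises succinate, changed less, with 108 and 106 FPKM in PRDM16 libraries, against 86.8 and 84.4 FPKM in PRDM16mut libraries (log2 fold change 0.32 ± 0.0492 (SE), adjusted p = 0.00278). Sdhc, a membrane anchor, had 139 and 137 FPKM in PRDM16 libraries, against 100.5 and 100.1 FPKM in PRDM16mut libraries (log2 fold change 0.45 ± 0.0471 (SE), adjusted p = 0.000596). Sdhd, the other anchor, had 169 and 166 FPKM in PRDM16 libraries, against 155 and 158 FPKM in PRDM16mut libraries, and was not called (log2 fold change 0.10 ± 0.0473 (SE), adjusted p = 0.117). The groups did not overlap in any of the 4 genes, beside 86.3% of all genes tested, and 69.5% of all genes were called. In the other experiments none of the 4 was called, beside 43.8% of all genes with E2A-HLF and 6.36% in the stable cells. Sdhb had 79.8 and 77.3 FPKM in PRDM16 libraries, against 82.2 and 86.9 FPKM in PRDM16mut libraries with E2A-HLF (adjusted p = 0.129). It had 66.4 and 65.1 FPKM in PRDM16 libraries, against 59.1 and 61.2 FPKM in PRDM16mut libraries in the stable cells (adjusted p = 0.0759). In neither did the groups overlap, the PRDM16 libraries lying below with E2A-HLF and above in the stable cells. Groups did not overlap in 73.7% of all genes with E2A-HLF and in 60.6% in the stable cells.

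Complex III had 7 of 8 genes called higher in the MLL-AF9 cotransduction and none lower, with a median of 0.34 and summed levels of 2363 and 2284 FPKM in PRDM16 libraries and 1807 and 1767 FPKM in PRDM16mut libraries. Uqcrh, the hinge protein that helps cytochrome c dock, had 519 and 486 FPKM in PRDM16 libraries, against 314 and 310.0 FPKM in PRDM16mut libraries (log2 fold change 0.69 ± 0.0543 (SE), adjusted p = 0.000223). The small subunit Uqcr10 had 372 and 352 FPKM in PRDM16 libraries, against 244 and 239 FPKM in PRDM16mut libraries (log2 fold change 0.58 ± 0.0521 (SE), adjusted p = 0.000348). Both were above PRDM16mut in each PRDM16 library. The core protein Uqcrc1 had the smallest change called in complex III, with 139 and 158 FPKM in PRDM16 libraries, against 125 and 123 FPKM in PRDM16mut libraries (log2 fold change 0.26 ± 0.0742 (SE), adjusted p = 0.027), and was not called with quantile normalization, with either rescaling or when genes of any level were tested. The small subunit Uqcr11 came next, with 361 and 414 FPKM in PRDM16 libraries, against 316 and 302 FPKM in PRDM16mut libraries (log2 fold change 0.32 ± 0.0778 (SE), adjusted p = 0.0141), and was not called with either rescaling. The Rieske iron-sulfur protein Uqcrfs1 had 104 and 98.4 FPKM in PRDM16 libraries, against 82.7 and 78.01 FPKM in PRDM16mut libraries (log2 fold change 0.33 ± 0.0586 (SE), adjusted p = 0.00468), and was not called when rescaled with the granulocyte lists apart. The groups did not overlap in any of these 3, beside 86.3% of all genes tested.

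Uqcrq, a small subunit near the ubiquinone site, is 1 of 2 genes called higher in both cotransductions, beside Ndufa4. With E2A-HLF it had 379 and 372 FPKM in PRDM16 libraries, against 287 and 300.3 FPKM in PRDM16mut libraries (log2 fold change 0.36 ± 0.0518 (SE), adjusted p = 0.00281). With MLL-AF9 in the cotransduction it had 394 and 393 FPKM in PRDM16 libraries, against 304 and 289 FPKM in PRDM16mut libraries (log2 fold change 0.41 ± 0.0505 (SE), adjusted p = 0.00117). Uqcrq was not called in the stable cells, with 419.6 and 418 FPKM in PRDM16 libraries, against 349 and 385 FPKM in PRDM16mut libraries (log2 fold change 0.19 ± 0.0526 (SE), adjusted p = 0.0891). Both PRDM16 libraries were above both PRDM16mut libraries in all 3 experiments.

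Complex IV had the widest range. Of its 14 tested genes, 9 were called higher and 2 lower in the MLL-AF9 cotransduction. Their median was 0.45, and the sum of its 18 genes was 1.49 times as high, the largest ratio of the 5 complexes. Cox4i1, the common form of the largest nuclear subunit, had 777 and 849.6 FPKM in PRDM16 libraries, against 464 and 469 FPKM in PRDM16mut libraries (log2 fold change 0.80 ± 0.0605 (SE), adjusted p = 0.000191). Cox8a, the common form of the smallest, had 733 and 777 FPKM in PRDM16 libraries, against 438 and 414 FPKM in PRDM16mut libraries (log2 fold change 0.83 ± 0.0575 (SE), adjusted p = 0.000144). The zinc-binding Cox5b had 417 and 438 FPKM in PRDM16 libraries, against 321 and 301 FPKM in PRDM16mut libraries (log2 fold change 0.46 ± 0.0579 (SE), adjusted p = 0.00127). All 3 were higher in both PRDM16 libraries. Cox7a2 was an exception among the common forms, with 225 and 202 FPKM in PRDM16 libraries, against 222 and 218 FPKM in PRDM16mut libraries and overlapping groups (adjusted p = 0.589).

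Both complex IV genes called lower in the MLL-AF9 cotransduction were isoforms of other tissues, at low levels. Cox4i2, the lung isoform of subunit IV, had 10.5 and 8.63 FPKM in PRDM16 libraries, against 26.04 and 22.98 FPKM in PRDM16mut libraries (log2 fold change -1.28 ± 0.108 (SE), adjusted p = 0.000288). As a share of Cox4i1 and Cox4i2 together it made up 1.33% and 1.01% in PRDM16 libraries and 5.31% and 4.67% in PRDM16mut libraries. With E2A-HLF it was higher instead, with 16.99 and 15.7 FPKM in PRDM16 libraries, against 13.03 and 14.6 FPKM in PRDM16mut libraries (log2 fold change 0.23 ± 0.0698 (SE), adjusted p = 0.0414), but not without PRDM16 replicate 1 or PRDM16mut replicate 1. It was under 1 FPKM in all 4 stable libraries, with at most 0.0904% of the pair.

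Cox7a1, the heart and skeletal muscle isoform of subunit VIIa, had 4.58 and 4.74 FPKM in PRDM16 libraries, against 12.3 and 15.1 FPKM in PRDM16mut libraries (log2 fold change -1.37 ± 0.102 (SE), adjusted p = 0.000179). Its share of Cox7a1 and Cox7a2 was 1.99% and 2.29% in PRDM16 libraries and 5.27% and 6.49% in PRDM16mut libraries. With E2A-HLF its PRDM16mut replicates were far apart, with 10.4 and 7.95 FPKM in PRDM16 libraries, against 4.43 and 8.86 FPKM in PRDM16mut libraries (adjusted p = 0.226), and without PRDM16mut replicate 2 the log2 fold change of 0.89 was called (adjusted p = 0.00621). The stable cells had 17.02 and 13.2 FPKM in PRDM16 libraries, against 13.5 and 15.1 FPKM in PRDM16mut libraries, with overlapping groups (adjusted p = 0.73).

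Cox6a2, a muscle isoform, and Cox6b2, a testis isoform, changed with E2A-HLF. Cox6a2 had 3.36 and 2.59 FPKM in PRDM16 libraries, against 0.517 and 0.148 FPKM in PRDM16mut libraries (log2 fold change 1.58 ± 0.158 (SE), adjusted p = 0.000584). Cox6a2 in the stable cells had 1.56 and 1.61 FPKM in PRDM16 libraries, against 0.706 and 0.948 FPKM in PRDM16mut libraries (log2 fold change 0.50 ± 0.0847 (SE), adjusted p = 0.0372), a call lost without any 1 of the 4 libraries. Cox6b2 fell to 5.73 and 6.12 FPKM in PRDM16 libraries, against 16.2 and 18.8 FPKM in PRDM16mut libraries (log2 fold change -1.41 ± 0.079 (SE), adjusted p = 6.01e-05). Cox6b2 was not called in the MLL-AF9 cotransduction (log2 fold change -0.42 ± 0.175 (SE), adjusted p = 0.0796) or in the stable cells (log2 fold change -0.51 ± 0.141 (SE), adjusted p = 0.0902). Both isoforms were minor: Cox6a2 was at most 0.621% of Cox6a1 and Cox6a2 together in any library, and Cox6b2 at most 2.99% of its pair. The common forms Cox6a1 and Cox6b1 were not called with E2A-HLF (adjusted p = 0.339 and 0.611), and were higher in the MLL-AF9 cotransduction by 0.64 and 0.38 (log2, adjusted p = 0.000461 and 0.00112).

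Cox7a2l is no core subunit but a factor that joins complexes III and IV into a supercomplex, and C57BL/6 mice are known to carry a short form of its protein. It had the largest rise of all these genes in the MLL-AF9 cotransduction, with 355 and 342 FPKM in PRDM16 libraries, against 143 and 145 FPKM in PRDM16mut libraries (log2 fold change 1.27 ± 0.0488 (SE), adjusted p = 2.14e-05). Of the 83 respiratory chain genes tested in all 3 experiments it alone was called in each, and the direction differed. That is 1.2%, beside 2.85% of all 9489 genes tested in the 3 experiments. With E2A-HLF it had 196 and 188 FPKM in PRDM16 libraries, against 211 and 226 FPKM in PRDM16mut libraries (log2 fold change -0.19 ± 0.0547 (SE), adjusted p = 0.0374), and in the stable cells 179.9 and 182 FPKM in PRDM16 libraries, against 152 and 160.3 FPKM in PRDM16mut libraries (log2 fold change 0.21 ± 0.036 (SE), adjusted p = 0.0372). The E2A-HLF call was lost without PRDM16 replicate 1, PRDM16 replicate 2 or PRDM16mut replicate 2 (adjusted p = 0.0893, 0.21 and 0.117). The stable call was lost without PRDM16 replicate 1, PRDM16 replicate 2 or PRDM16mut replicate 1 (adjusted p = 0.187, 0.204 and 0.0822).

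Complex V had 13 of 17 genes called higher in the MLL-AF9 cotransduction and none lower, with a median of 0.38 and summed levels of 7937 and 7548 FPKM in PRDM16 libraries and 5785 and 5692 FPKM in PRDM16mut libraries. Atp5d, the delta subunit of the central stalk, had 283 and 315 FPKM in PRDM16 libraries, against 165 and 161 FPKM in PRDM16mut libraries (log2 fold change 0.87 ± 0.0674 (SE), adjusted p = 0.000208). Atp5k, subunit e of the membrane part, had 1315 and 1071 FPKM in PRDM16 libraries, against 763 and 736 FPKM in PRDM16mut libraries (log2 fold change 0.66 ± 0.103 (SE), adjusted p = 0.00278). Atp5o, which links the catalytic head to the peripheral stalk, had 331 and 338 FPKM in PRDM16 libraries, against 237 and 238 FPKM in PRDM16mut libraries (log2 fold change 0.49 ± 0.0465 (SE), adjusted p = 0.000418). These 3 were higher in both PRDM16 libraries, Atp5k with a wide gap between them. The catalytic beta subunit Atp5b had the smallest change called, with 714 and 737 FPKM in PRDM16 libraries, against 618 and 614 FPKM in PRDM16mut libraries (log2 fold change 0.24 ± 0.0473 (SE), adjusted p = 0.00725), and was not called with quantile normalization or with either rescaling. The coupling factor Atp5j came next, at 0.35, with 321 and 281 FPKM with PRDM16 and 238 and 234 FPKM with PRDM16mut (adjusted p = 0.00917).

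Atp5g1, Atp5g2 and Atp5g3 encode the same mature subunit of the rotating c ring with different import signals. Atp5g3 in the MLL-AF9 cotransduction had 717 and 694 FPKM in PRDM16 libraries, against 491 and 478 FPKM in PRDM16mut libraries (log2 fold change 0.54 ± 0.0489 (SE), adjusted p = 0.000358), and Atp5g2 had 526 and 585 FPKM in PRDM16 libraries, against 435 and 430.5 FPKM in PRDM16mut libraries (log2 fold change 0.36 ± 0.0658 (SE), adjusted p = 0.00527). Atp5g1 had 231 and 261 FPKM in PRDM16 libraries, against 259.8 and 266 FPKM in PRDM16mut libraries, with overlapping groups (adjusted p = 0.276). Its share of the 3 genes was 15.7% and 17% in PRDM16 libraries and 21.9% and 22.6% in PRDM16mut libraries. With E2A-HLF the share went the other way, at 20.6% and 20.9% in PRDM16 libraries and 17.3% and 17.4% in PRDM16mut libraries, and Atp5g1 was the c ring gene called (log2 fold change 0.21 ± 0.0576 (SE), adjusted p = 0.0298), a call lost without PRDM16 replicate 1, PRDM16 replicate 2 or PRDM16mut replicate 1. Atp5s, a coupling factor and no subunit, had 7.60 and 6.27 FPKM in PRDM16 libraries, against 8.52 and 8.70 FPKM in PRDM16mut libraries with E2A-HLF (log2 fold change -0.28 ± 0.0866 (SE), adjusted p = 0.0437), and this call was lost without PRDM16 replicate 2, PRDM16mut replicate 1 or PRDM16mut replicate 2.

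The effect of PRDM16 in the MLL-AF9 cotransduction differed from that in both other experiments. The difference was tested in 1 fit of all 12 libraries over 9488 genes that passed the level filter in every table, 83 of them respiratory chain genes. The MLL-AF9 minus E2A-HLF difference was called above 0 for 61 genes and below 0 for 6, which is 80.7%, beside 71.4% of all genes (32.7% above and 38.8% below). Its median was 0.45, beside -0.05 for all genes. The MLL-AF9 cotransduction minus stable cells difference was above 0 for 60 genes and below for 5, 78.3% beside 64% of all genes (30.6% above and 33.4% below), with a median of 0.31 beside -0.02. The E2A-HLF minus stable cells difference was above 0 for 1 gene and below for 13, 16.9% beside 37.1% of all genes (20.2% above and 16.9% below), with a median of -0.11 beside 0.01. Without PRDM16mut replicate 2 of the E2A-HLF cotransduction, the last counts were 3 and 7. They were 1 and 8 without PRDM16 replicate 2 of that cotransduction or without either PRDM16 library of the stable cells, and 2 and 8 without PRDM16mut replicate 1 of the stable cells.

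Cox7a2l and Sdhb had the largest differences above 0 between the cotransductions. Their MLL-AF9 minus E2A-HLF differences were 1.45 ± 0.0653 (SE), adjusted p = 1.47e-08, and 1.24 ± 0.0569 (SE), adjusted p = 1.72e-08. Against the stable cells they were 1.06 ± 0.0653 (SE), adjusted p = 3.26e-07, and 1.01 ± 0.0569 (SE), adjusted p = 1.65e-07. Ndufa1 followed against the stable cells, at 0.84 ± 0.0958 (SE), adjusted p = 2.95e-05. Cox7a1 had the largest difference below 0, at -1.84 ± 0.332 (SE), adjusted p = 0.000571, with MLL-AF9 minus E2A-HLF, and -1.44 ± 0.332 (SE), adjusted p = 0.00323, against the stable cells. Ndufa4 had a larger rise with E2A-HLF than with MLL-AF9, the difference being -0.49 ± 0.0949 (SE), adjusted p = 0.000875 (MLL-AF9 minus E2A-HLF), and differed from the stable cells by 0.98 ± 0.0949 (SE), adjusted p = 2.43e-05 (E2A-HLF minus stable cells).

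**Figure D4:**
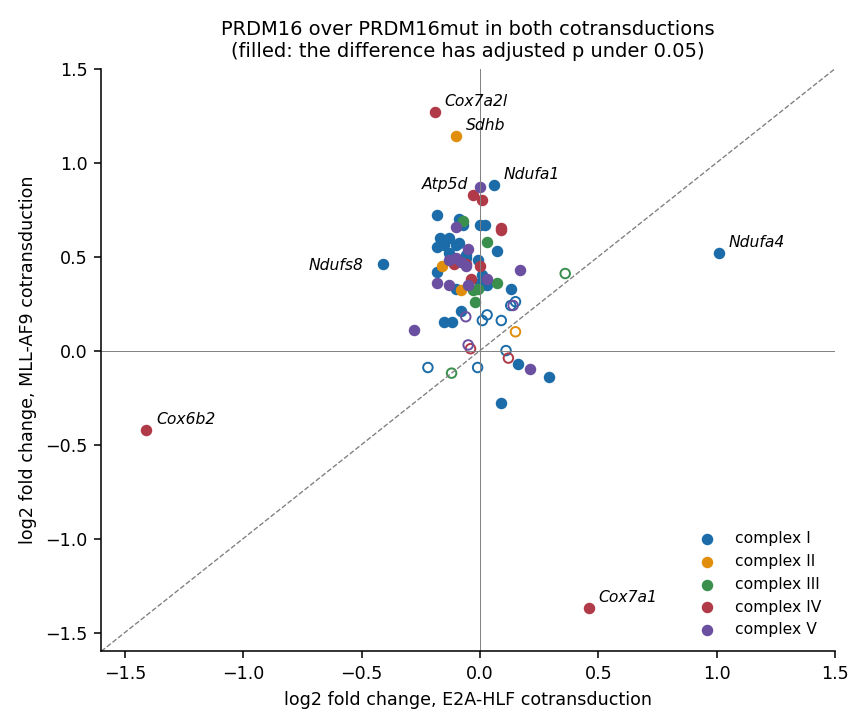
Log2 fold change of PRDM16 over PRDM16mut, on log2(FPKM + 1), in the MLL-AF9 cotransduction (vertical axis) and in the E2A-HLF cotransduction (horizontal axis) for each of the 83 genes tested in all tables; the dashed line marks equal change and filled points have a called difference. Most points lie above the line near 0 on the horizontal axis, and Cox7a2l, Sdhb, Ndufa4, Cox6b2 and Cox7a1 lie apart.

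Genes around the respiratory chain had smaller medians in the MLL-AF9 cotransduction, where 35.6% of all genes were higher and 34% lower. The assembly factors had 12 higher and 7 lower of 36 tested and a median log2 fold change of 0.04. Oxa1l, which inserts proteins into the inner membrane, had 38.04 and 40.99 FPKM in PRDM16 libraries, against 21.1 and 20.6 FPKM in PRDM16mut libraries (adjusted p = 0.000132), and Sdhaf1, which helps load the iron-sulfur clusters of Sdhb, had 26.9 and 25.1 FPKM in PRDM16 libraries, against 13.9 and 14.1 FPKM in PRDM16mut libraries (adjusted p = 0.000153). Acad9, an assembly factor of complex I, was lower, with 10.2 and 10.1 FPKM in PRDM16 libraries, against 14.1 and 13.6 FPKM in PRDM16mut libraries (adjusted p = 0.00164). The electron carriers and ubiquinone synthesis genes had 3 higher and 9 lower of 22 tested and a median of -0.16. Cycs, cytochrome c itself, was lower, with 62.4 and 53.1 FPKM in PRDM16 libraries, against 74.8 and 73.8 FPKM in PRDM16mut libraries (log2 fold change -0.36 ± 0.0858 (SE), adjusted p = 0.0131). Cyc1, the cytochrome c1 of complex III, whose symbol the rule for members leaves out, was higher, with 154 and 178 FPKM in PRDM16 libraries, against 139.7 and 133 FPKM in PRDM16mut libraries (log2 fold change 0.28 ± 0.0808 (SE), adjusted p = 0.0261). Cycs and Cyc1 were named after their values were seen, as the electron carriers next to complex III.

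The citric acid cycle list had 10 higher and 5 lower of 21 tested and a median of 0.14. Idh2, the mitochondrial NADP-dependent isocitrate dehydrogenase, had 132 and 140.3 FPKM in PRDM16 libraries, against 74.4 and 73.2 FPKM in PRDM16mut libraries (adjusted p = 1e-04), while the pyruvate carrier subunit Mpc1 had 109.6 and 103 FPKM in PRDM16 libraries, against 147 and 137 FPKM in PRDM16mut libraries (adjusted p = 0.00258). The mitochondrial ribosomal proteins had 28 higher and 9 lower of 76 tested and a median of 0.10. The import machinery had 8 higher and 5 lower of 22 tested and a median of -0.03. The list of inner membrane carriers and structure had 8 higher and 1 lower of 14 tested and a median of 0.31, the closest to the respiratory chain. In it, the ADP/ATP exchanger Slc25a4 had 201 and 206 FPKM in PRDM16 libraries, against 77.04 and 70.4 FPKM in PRDM16mut libraries (adjusted p = 2.9e-05), and Atpif1, the inhibitor of ATP synthase, had 637 and 587 FPKM in PRDM16 libraries, against 338 and 331 FPKM in PRDM16mut libraries (adjusted p = 0.000132).

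The regulators of mitochondrial biogenesis had 5 higher and 9 lower of 22 tested, with a median of -0.14. Nrf1, whose motif is marked in the promoters, was lower, with 8.91 and 9.04 FPKM in PRDM16 libraries, against 15.3 and 14.97 FPKM in PRDM16mut libraries (log2 fold change -0.69 ± 0.0548 (SE), adjusted p = 0.000224). Gabpa, the ETS factor of GABP, was lower too, with 10.9 and 10.4 FPKM in PRDM16 libraries, against 17.1 and 17.3 FPKM in PRDM16mut libraries (log2 fold change -0.64 ± 0.0569 (SE), adjusted p = 0.000337). Yy1 was higher, with 58.4 and 54.5 FPKM in PRDM16 libraries, against 46.7 and 46.7 FPKM in PRDM16mut libraries (log2 fold change 0.27 ± 0.0567 (SE), adjusted p = 0.00891), and Tfam, which packs and transcribes mitochondrial DNA, was not called, with 13.1 and 12.3 FPKM in PRDM16 libraries, against 11.9 and 11.97 FPKM in PRDM16mut libraries (adjusted p = 0.298). The coactivator Ppargc1b had 1.24 and 1.66 FPKM in PRDM16 libraries, against 0.437 and 0.380 FPKM in PRDM16mut libraries (adjusted p = 0.00118), and Ppargc1a was under 1 FPKM in all 12 libraries. Gabpa, Yy1 and Tfam were named after their values were seen, as the factors of the searched motifs and of mitochondrial DNA.

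With E2A-HLF, where 43.8% of all genes were called, the citric acid cycle list lay above that share and the other 6 lists below it. The assembly factors had 4 higher and 0 lower of 28 tested, the electron carriers 5 higher and 3 lower of 22 tested, the mitochondrial ribosome 13 higher and 3 lower of 76 tested, the import machinery 5 higher and 0 lower of 20 tested, the inner membrane carriers 2 higher and 1 lower of 14 tested and the regulators 2 higher and 1 lower of 22 tested. The citric acid cycle list had 8 higher and 2 lower of 19 tested. In it Dlst, a subunit of oxoglutarate dehydrogenase, had 130.1 and 129 FPKM in PRDM16 libraries, against 74.1 and 75.4 FPKM in PRDM16mut libraries (log2 fold change 0.79 ± 0.0407 (SE), adjusted p = 4.46e-05). Idh2 was lower there, with 187 and 183 FPKM in PRDM16 libraries, against 230.1 and 233 FPKM in PRDM16mut libraries (adjusted p = 0.00235). In the stable cells the assembly factors had 1 higher and 0 lower of 28 tested, the mitochondrial ribosome 2 higher and 1 lower of 76 tested and the regulators 2 higher and 2 lower of 21 tested, and the other 4 lists had 0 calls in either direction. At an unadjusted limma p under 0.05 the electron carriers had 6 higher and 5 lower, the citric acid cycle 3 and 2, the import machinery 2 and 1, and the inner membrane carriers 3 and 0. These lists were chosen with earlier results of these data known.

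Markers of blood cell types other than the neutrophil and mast cell lists were examined as well, and their calls stand beside 69.5% of all genes called in the MLL-AF9 cotransduction, 43.8% in the E2A-HLF cotransduction and 6.36% in the stable cells. With MLL-AF9 in the cotransduction, monocyte and macrophage genes had 6 higher and 3 lower of 10 tested, with summed levels of 4973 and 5005 FPKM in PRDM16 libraries, against 3374 and 3358 FPKM in PRDM16mut libraries. Erythroid genes had 7 higher and 1 lower of 8 tested, with 1309 and 1120.2 FPKM in PRDM16 libraries, against 299 and 275 FPKM in PRDM16mut libraries, while Alas2 and Slc4a1, which mark later erythroid stages, were under 1 FPKM in all 4 libraries. Progenitor genes went both ways, with 3 higher and 4 lower of 8 tested. Among those lower, Kit, the receptor for SCF, was at 5.29 and 6.07 FPKM in PRDM16 libraries, against 46.8 and 47.5 FPKM in PRDM16mut libraries (adjusted p = 6.75e-06). Among those higher, Gata2 had 95.4 and 104 FPKM in PRDM16 libraries, against 31.1 and 31.5 FPKM in PRDM16mut libraries (adjusted p = 2.11e-05). Sox4, also higher, had 11.6 and 14.9 FPKM in PRDM16 libraries, against 2.05 and 2.085 FPKM in PRDM16mut libraries (adjusted p = 6.16e-05). Flt3 and Cd27 were under 1 FPKM in all 4 libraries there. In the E2A-HLF cotransduction monocyte genes had 7 higher and 2 lower of 9 tested, with 3573 and 3360.0 FPKM in PRDM16 libraries, against 1669 and 1807 FPKM in PRDM16mut libraries, mast cell genes 4 higher and 1 lower of 6 tested, erythroid genes 2 higher and 1 lower of 9 tested and progenitor genes 2 higher and 7 lower of 10 tested. In the stable cells the neutrophil list had 1 higher and 3 lower of 13 tested, with 15548 and 15682 FPKM in PRDM16 libraries, against 14835 and 15436 FPKM in PRDM16mut libraries, the monocyte list 2 higher and 0 lower of 9 tested, the progenitor list 1 higher and 0 lower of 8 tested, the erythroid list 0 higher and 1 lower of 2 tested, and the mast cell and cell division lists 0 calls (0 and 1 genes at an unadjusted limma p under 0.05). T and NK cell genes were under 1 FPKM in every library, and of 6 B cell genes Cd79b alone was tested, which was lower with E2A-HLF. Their part in the respiratory chain levels was not tested.

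Transcripts of the respiratory chain are short, with a median annotated length of 683 bases beside 2092 for the other genes tested in the MLL-AF9 cotransduction (GENCODE vM21, protein-coding transcripts). Among genes of up to 800 bases, the median log2 fold change there was 0.40 for 50 respiratory chain genes and 0.12 for 1155 others. From 800 to 1600 bases it was 0.46 for 27 and 0.09 for 2468 others, and from 1600 to 3200 bases 0.28 for 6 and -0.01 for 3727 others. Above 3200 bases, where there was no respiratory chain gene, the median was -0.13. In each of the 3 classes that hold them, the median of the respiratory chain genes was above that of the others. Short genes as a whole were higher than long ones. The others were not matched for level, and the part of length in the result was not tested. With E2A-HLF the medians up to 800 bases were 0 for 51 respiratory chain genes and 0.02 for 1077 others, and in the stable cells 0.08 for 50 and 0.03 for 1054 others.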

How the data were processed

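Transcript levels were measured by RNA sequencing of oligo(dT)-selected RNA in 12 libraries, 2 in each of 6 groups. The deposited values are FPKM per gene symbol in 3 tables of 4 libraries. Per the submitters' processing notes, the authors used Bowtie2 2.0.0.7, TopHat2 2.0.3 and Cuffdiff with the mouse build mm9; the annotation, scaling and filters behind the FPKM are not given. Symbols that a spreadsheet had turned into dates (25 to 27 in a table) stayed in the fit of each table under that name, and those found more than once were left out of the fit of all libraries.

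Each table was analysed by itself, on log2(FPKM + 1), for genes that reached 1 FPKM in 2 or more of the 4 libraries, with limma 3.58.1 (R 4.3.3; two-sided, variance trend) and Benjamini-Hochberg adjustment over all genes tested. A call is an adjusted p under 0.05, and every adjusted p in the text is limma's. Fold changes are PRDM16 minus PRDM16mut and understate the change of genes at low levels. Differences between experiments came from 1 limma fit of all 12 libraries; since tables may have been scaled separately, levels were not tested across them. The procedure was tested on simulated data: of 100 genes changed by 0.5 (log2), 47% were called among 11071 genes of the MLL-AF9 cotransduction, 88% among 11010 of the E2A-HLF cotransduction and 92% among 10579 of the stable cells. Each simulation changed these and 100 genes by 1, a smaller share than the 69.5%, 43.8% and 6.36% called in the data. The adjusted p depends on that share, so these percentages do not give the share of real changes called.

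Genes were named by rule: in each complex and comparison, the 2 largest and 2 smallest changes among genes called with groups that do not overlap, listed core subunits and isoforms, the 3 largest differences each way, and up to 2 genes of smallest p each way per list. The members and lists were chosen with earlier results of these data known. Alternatives were another pseudocount (0.1), other level filters, quantile normalization, rescaling, 1 fit of all libraries, the replicate block and leaving out each library. Promoter sequences are from RefSeq (GRCm38.p6).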

Additional observations from a re-analysis of the deposited data

Results flagged for a closer look

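For 16 pairs of a gene and 2 experiments, the difference between the effects of PRDM16 itself passed the test, and they are given for that reason. They are the differences of largest size in each direction, as a log2 fold change in the first experiment minus that in the second. Between the MLL-AF9 and the E2A-HLF cotransduction the difference was 1.45 ± 0.0653 (SE, limma adjusted p = 1.47e-08) for Cox7a2l and 1.24 ± 0.0569 (SE, limma adjusted p = 1.72e-08) for Sdhb. It was 0.99 ± 0.236 (SE, limma adjusted p = 0.00336) for Cox6b2, with log2 fold changes of -0.42 (not called) with MLL-AF9 and -1.41 (called) with E2A-HLF. Below 0 it was -1.84 ± 0.332 (SE, limma adjusted p = 0.000571) for Cox7a1, -0.49 ± 0.0949 (SE, limma adjusted p = 0.000875) for Ndufa4 and -0.43 ± 0.14 (SE, limma adjusted p = 0.0181) for Ndufaf3. The Ndufaf3 difference was -0.38 (limma adjusted p = 0.062) without PRDM16 replicate 1 of the E2A-HLF cotransduction and -0.34 (limma adjusted p = 0.0732) without its PRDM16mut replicate 1.

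Between the MLL-AF9 cotransduction and the stable MLL-AF9 cells the difference was 1.06 ± 0.0653 (SE, limma adjusted p = 3.26e-07) for Cox7a2l, 1.01 ± 0.0569 (SE, limma adjusted p = 1.65e-07) for Sdhb and 0.84 ± 0.0958 (SE, limma adjusted p = 2.95e-05) for Ndufa1. Below 0 it was -1.44 ± 0.332 (SE, limma adjusted p = 0.00323) for Cox7a1, -0.37 ± 0.0992 (SE, limma adjusted p = 0.0083) for Ndufb3 and -0.24 ± 0.0694 (SE, limma adjusted p = 0.012) for Ndufv3. The Ndufv3 difference was -0.2 (limma adjusted p = 0.0564) without PRDM16 replicate 2 of the stable cells and -0.17 (limma adjusted p = 0.05, not under the threshold) without their PRDM16mut replicate 1.

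For E2A-HLF minus stable cells the difference was 0.98 ± 0.0949 (SE, limma adjusted p = 2.43e-05) for Ndufa4, -0.42 ± 0.058 (SE, limma adjusted p = 0.000289) for Ndufs8 and -0.42 ± 0.109 (SE, limma adjusted p = 0.0131) for Atp5s. It was -0.9 ± 0.236 (SE, limma adjusted p = 0.0133) for Cox6b2, which had few FPKM in the stable cells. That difference was -0.8 (limma adjusted p = 0.0531) without PRDM16mut replicate 2 of the E2A-HLF cotransduction, -0.68 (limma adjusted p = 0.05, not under the threshold) without PRDM16 replicate 1 of the stable cells, and -0.85 (limma adjusted p = 0.0522) with a pseudocount of 0.1. The fusion oncogene, the order of transduction and the drugs of selection differ between some of these experiments, and their shares in a difference cannot be told apart.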

How the results depend on the processing

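The 63 higher calls of the MLL-AF9 cotransduction became 42 when rescaled with the granulocyte lists and Rn45s apart. There, 45 of the 66 genes called in either direction were still called. Under the other alternatives that kept all libraries, the higher calls lay between 55 and 66. The median was 0.384 with genes of any level, 0.302 with quantile normalization and 0.288 rescaled with Rn45s apart. The lower calls were 5 with quantile normalization and 6 rescaled. With the granulocyte lists also apart, chosen after seeing the data, 14 were lower and the median was 0.147. Of the called genes named here, 3 changed sign without a call: Atp5b (-0.02), Ndufb10 (-0.09) and Uqcrc1 (0 to 2 decimals). Genes not named here were not checked for a change of sign. With E2A-HLF, 4 genes were higher without the level filter, 37 were lower with quantile normalization, 11 were higher and 24 lower with either rescaling, and 10 lower in 1 fit of all 12 libraries. In the stable cells 0 were higher without the level filter, 1 with quantile normalization and 1 in 1 fit of all libraries, and the median was 0.036 with quantile normalization and 0.027 with either rescaling.

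Of the differences, the median of MLL-AF9 minus E2A-HLF was 0.365 rescaled, and that of MLL-AF9 minus stable cells 0.266 with quantile normalization and 0.238 rescaled. E2A-HLF minus stable cells had 2 genes above 0 without the level filter, 2 with quantile normalization and 3 rescaled, and 30 below 0 with quantile normalization. The cause of these changes was not tested.

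Leaving out 1 library at a time gave, in the MLL-AF9 cotransduction, 2 to 7 lower calls and a median of 0.377 to 0.425; with E2A-HLF, 3 to 11 higher and 2 to 14 lower calls; in the stable cells, 0 to 2 higher and 0 to 1 lower. The median of MLL-AF9 minus E2A-HLF lay between 0.394 and 0.51. MLL-AF9 minus stable cells had 2 to 7 genes below 0 and a median of 0.302 to 0.363, and E2A-HLF minus stable cells 1 to 3 above 0 and 7 to 18 below.

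With the replicate number as a block, counts were 62 higher and 4 lower with MLL-AF9, 5 and 4 with E2A-HLF, and 2 and 1 in the stable cells. Deviations of same-numbered libraries correlated at 0.067, 0.289 and 0.319 in these tables, with only 2 pairs each, so the numbers are not taken as pairs. FPKM do not state the number of reads, and 2 libraries against 2 cannot give an exact permutation p under 0.333. Calls thus rest on the spread that limma shares across genes.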

Other observations

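Of the 83 respiratory chain genes tested in all 3 experiments, 59 were called higher in the MLL-AF9 cotransduction and in neither direction elsewhere, and 12 were called nowhere. That is 71.1% and 14.5%, beside 16.3% and 21.5% of all 9489 genes tested in the 3 experiments. The 12 were Ndufs1, Ndufs6, Ndufv2, Ndufab1, Ndufaf2, Ndufaf4, Sdhd, Uqcrb, Cox7a2, Cox7b, Atp5f1 and Atp5sl. They hold subunits of all 5 complexes, among them the NADH module subunits Ndufs1 and Ndufv2 of complex I. Among the 8 genes counted apart, Ndufab1 included, 2 were called in the MLL-AF9 cotransduction (Ndufaf1 and Cox7a2l). That stands beside 64 of 76 genes counted as subunits and 69.5% of all genes. The median log2 fold change was 0.17 for the genes counted apart and 0.44 for those counted as subunits. The Ndufaf1 call was lost without either PRDM16mut library and when rescaled with the granulocyte lists apart. No test of these counts was made, and these genes were singled out after their values were seen.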
